A study of Homo sapiens with 9 samples.

Results

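The 43 genes described here encode plasma proteins that hepatocytes secrete. They were chosen by gene name, and all 43 were found among the 60642 gene names of the count table. By role they were 8 apolipoproteins, 10 carriers and transport proteins, 11 protease inhibitors and prohormones, 10 coagulation, fibrinolysis and adhesion proteins and 4 complement proteins.

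RNA-seq was performed on SNU-398, an established line of human hepatocellular carcinoma (HCC) cells, with 3 groups and 3 libraries in each. The vector control cells, labelled wild type, carried the empty lentiviral vector, and the other groups stably overexpressed full-length EMX1 (EMX1-FL) or its alternative terminal exon isoform (EMX1-X1). EMX1 is a homeodomain transcription factor, and the study compared the transcriptional effects of its isoforms. All 3 groups shared the lentiviral transduction and the puromycin selection, and the cells were grown in RPMI1640 with fetal bovine serum.

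The labels do not state whether the libraries of a group came from separate cultures, so the p-values measure the spread between these libraries. Library depth ranged from 21562703 to 25197970 counts. EMX1 itself had 218, 229 and 313 counts in the vector control libraries, 5660, 3202 and 3145 in EMX1-FL and 3479, 7083 and 7133 in EMX1-X1. Counts per gene do not separate the isoforms. On the first principal component, which held 39.6% of the variance, the libraries fell into set A (vector control replicates 1 and 2, EMX1-FL replicates 2 and 3, EMX1-X1 replicate 1) and set B (the other 4). Each set held libraries of every group, and values are given by set where they bear on a result.

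Plasma proteins are among the most abundant products of the adult liver. Albumin carries fatty acids and maintains the oncotic pressure of blood, and apolipoproteins build and direct lipoprotein particles. Many coagulation factors and some complement proteins circulate as inactive zymogens, and protease inhibitors limit their activation. Their transcription in hepatocytes depends on a small set of factors that include HNF4A, the FOXA proteins and the C/EBP proteins, and many members respond to IL-6 in the acute phase.

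The promoter sequences of ALB, C5 and FGB are shown because they hold the same short motif, GTTAAT, but their genes were detected at different levels: FGB, the fibrinogen beta chain, had 0 counts in all 9 libraries, ALB was low and C5, whose product starts the membrane attack complex, was the second highest member. Each is the stretch before the RefSeq start site (GRCh38.p14) that no exon of GENCODE release 29 covers, and the capitals mark GTTAAT or its reverse complement.
ALB promoter, chr4:73404037-73404238, plus strand: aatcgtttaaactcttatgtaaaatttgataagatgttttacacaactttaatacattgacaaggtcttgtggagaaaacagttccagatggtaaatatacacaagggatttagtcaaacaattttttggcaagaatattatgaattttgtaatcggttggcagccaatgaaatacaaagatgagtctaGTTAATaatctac
C5 promoter, chr9:121050277-121050525, minus strand: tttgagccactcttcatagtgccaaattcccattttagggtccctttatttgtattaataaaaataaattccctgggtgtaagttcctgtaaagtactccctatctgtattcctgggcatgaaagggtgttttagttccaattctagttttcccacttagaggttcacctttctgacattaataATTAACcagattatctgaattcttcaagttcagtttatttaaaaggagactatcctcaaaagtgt
FGB promoter, chr4:154562730-154562955, plus strand: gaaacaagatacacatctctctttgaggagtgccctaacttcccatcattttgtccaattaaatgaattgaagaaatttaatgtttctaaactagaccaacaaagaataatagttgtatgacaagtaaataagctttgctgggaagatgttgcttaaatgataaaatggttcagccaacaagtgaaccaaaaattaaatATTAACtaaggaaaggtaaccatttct

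The motif began 61 bases before the start site in ALB, 66 in C5 and 51 in FGB. RefSeq promoters were at hand for 33 of the 43 members, some with several start sites. In the 250 bases before a start site, GTTAAT on either strand was found in 9 of these 33 members (27.3%) and in 7.5% of the 27305 genes with a promoter. The 9 were ALB, APOH, SERPINA1, FGA, FGB, F2, PLG, C4BPA and C5. Of these, ALB and C5 passed the filter on low counts described below, and FGA and FGB had 0 counts. Of all 33 members with a promoter, 6 passed. A2M and C3, which also passed, were among the 10 members without a promoter and were not searched. The C/EBP motif TTGCNNAA was found in 10 of 33 members (30.3%) and in 11% of all genes, and the FOXA motif TGTTTAC in 3 of 33 (9.09%) and in 3.66%. The homeodomain core TAATTA, which overlaps GTTAAT in C5, was found in 2 of 33 members (6.06%), FETUB and C5, and in 5.37% of all genes. The median GC content was 53.2% for the member windows and 58% for all windows, so letters rich in A and T are not equally likely in both. These matches describe letters and not binding.

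In the vector control cells, most of the plasma protein genes were close to or at 0. The level was compared between genes as TPM, which corrects for gene length. Only 6 of the 43 members (14%) had a median of at least 1 TPM, against 61.5% of the 19606 protein-coding gene names. These were A2M, C5, APOM, F10, APOC1 and APOE. CPM was counts per 1000000 counted read pairs, with library sizes scaled by edgeR's TMM factors. Without the scaling of TPM to a fixed sum, as CPM per kilobase, 3 members reached 1. The markers of the list gave different pictures: A2M was well expressed and ALB was not. The name of the list therefore describes where these proteins are made in the body and not the state of these cells. In bulk libraries, fewer expressing cells and less RNA per cell cannot be told apart.

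**Figure D1:**
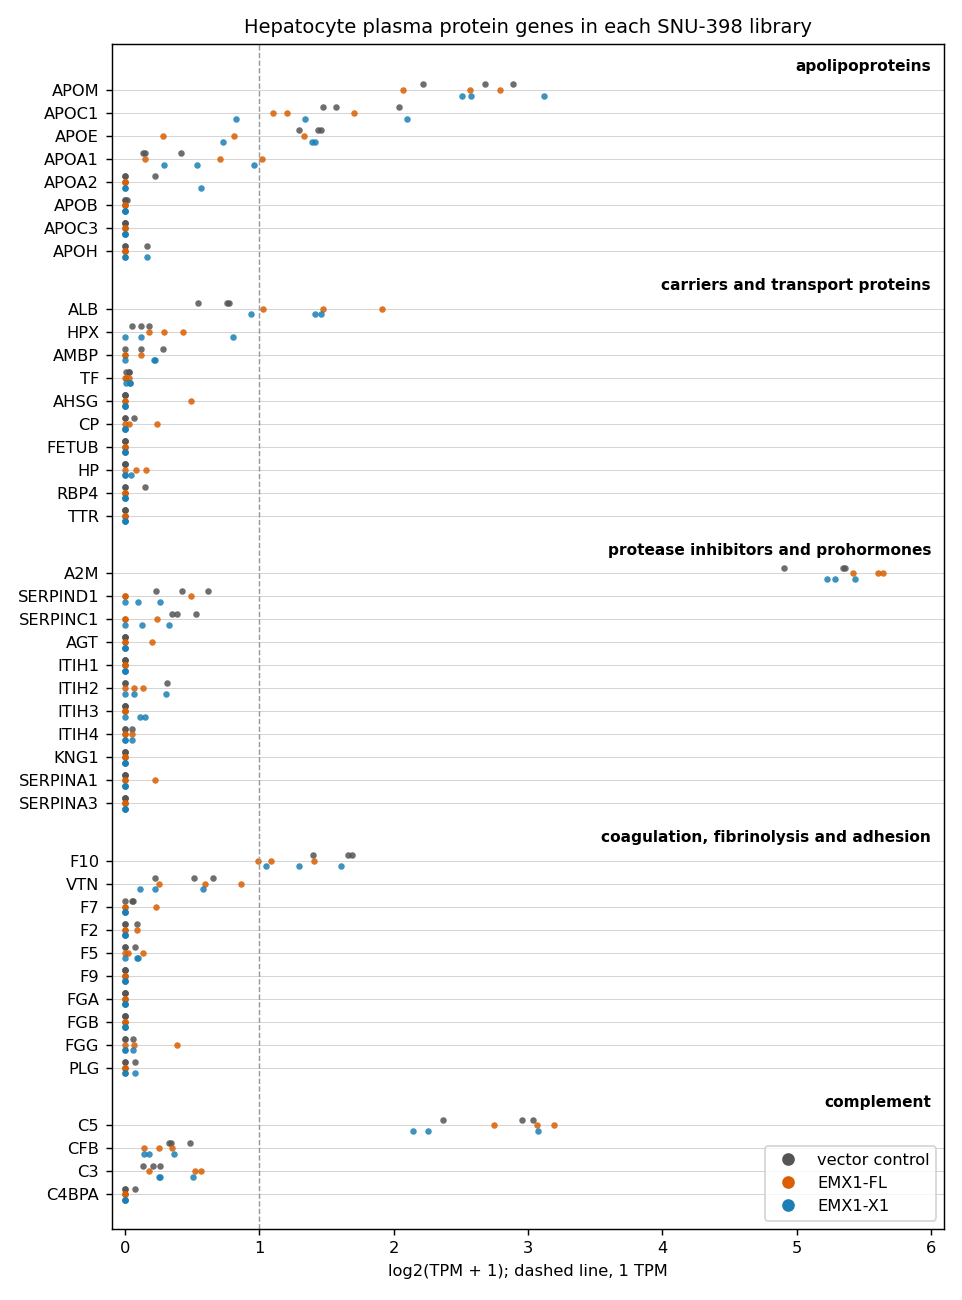
Level of each of the 43 members, as log2(TPM + 1), in every library, with 1 point per library coloured by group and members grouped by role. A2M stands alone above 28 TPM, C5 and APOM follow, and most other members sit at or near 0 in all 3 groups.

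A2M encodes alpha-2-macroglobulin, a broad protease trap of plasma that mesenchymal cells can also make. Its level was 28.9, 40.0 and 39.7 TPM in the vector control libraries, 49.0, 47.6 and 41.7 TPM in EMX1-FL and 42.3, 36.5 and 37.9 TPM in EMX1-X1. Vector control replicate 1 was the lowest of the 9 libraries and the groups otherwise lay close together, with all EMX1-FL values above the vector control in TPM but not in CPM. In the vector control its median exceeded 82.4% of the 25717 gene names with a nonzero median. A2M took between 71.6% and 82.5% of all member counts in each library. The gene lies at chr12:9067664-9116229 on the minus strand (Ensembl release 99, GRCh38), and 8.79% of its exon bases overlap A2M-AS1, so reads there were not counted for either gene. A2M-AS1 had 34, 58 and 53 counts in the vector control, 31, 53 and 29 for EMX1-FL and 18, 20 and 26 for EMX1-X1.

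C5, at chr9:120952335-121050275 on the minus strand, was the second highest member. Its level was 6.77, 7.2 and 4.16 TPM in the vector control, 5.7, 8.13 and 7.38 TPM in EMX1-FL and 7.42, 3.76 and 3.42 TPM in EMX1-X1. The groups overlapped, and the low libraries were those of set B. In CPM, C5 was between 11.9 and 14.3 in the 5 libraries of set A and between 6.02 and 10.2 in the 4 of set B. It was the only member tested whose sets did not overlap, which was true of 33.1% of all genes tested.

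The other members with a complement role were low. C3, the protein on which all complement pathways converge, had 8, 5 and 12 counts in the vector control, 22, 7 and 22 for EMX1-FL and 10, 22 and 11 for EMX1-X1, a median of 0.153 TPM in the vector control. CFB, the protease of the alternative pathway convertase, had between 3 and 12 counts in every library, but 48% of its exon bases overlap C2 and AL645922.1, where reads were not counted. C4BPA, a complement inhibitor, had 1 count in 1 library.

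Among the apolipoproteins, APOM, which carries sphingosine-1-phosphate on HDL, was the highest. Its level was 5.4, 3.65 and 6.41 TPM in the vector control, 5.92, 4.94 and 3.19 TPM in EMX1-FL and 4.69, 7.68 and 4.97 TPM in EMX1-X1. The 3 groups overlapped. APOC1, which inhibits the uptake of lipoprotein remnants, had 24, 14 and 18 counts in the vector control, 17, 9 and 9 for EMX1-FL and 12, 6 and 27 for EMX1-X1. Its exon bases overlap AC011481.3 over 43.2%, so its level is uncertain.

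APOE, the ligand by which remnant particles bind cell surface receptors, lies next to APOC1, with 4853 bases between the genes on chromosome 19. APOE had 23, 20 and 28 counts in the vector control, 20, 3 and 9 for EMX1-FL and 9, 22 and 24 for EMX1-X1. The lowest 3 libraries, EMX1-FL replicates 2 and 3 and EMX1-X1 replicate 1, were all of set A. APOA1, the main protein of HDL, had between 1 and 9 counts per library. APOB, the scaffold of LDL and VLDL, had 1 count in 1 library, APOA2 had 4 counts over the 9 libraries, APOH had 2 and APOC3 had 0.

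Among the carriers, ALB was the only member that passed the filter. ALB, at chr4:73397114-73421482 on the plus strand, had a median of 0.695 TPM in the vector control, above 24.8% of the gene names with a nonzero median. AFP, the fetal albumin homolog next to it in the genome, had 0 counts in all 9 libraries. TTR, the carrier of thyroxine, and FETUB, a protease inhibitor of the fetuin family, had 0 counts in all 9 libraries. TF, which carries iron, had at most 4 counts per library. RBP4, which carries retinol, had 1 count in 1 library.

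Some carriers had counts in few libraries. HPX, the heme scavenger, had 17 counts in EMX1-X1 replicate 2 and between 0 and 7 in the others. CP, the ferroxidase ceruloplasmin, had 7 counts in EMX1-FL replicate 3 and at most 2 elsewhere. AHSG, the fetuin that binds calcium phosphate, had 5 counts in EMX1-FL replicate 3 and 0 in the others. HP, the hemoglobin scavenger haptoglobin, had at most 4 counts per library, and AMBP, the precursor of alpha-1-microglobulin and bikunin, had at most 3.

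Among the coagulation and adhesion members, F10 was the highest. F10, at chr13:113122799-113149529 on the plus strand, encodes the zymogen of the protease that cleaves prothrombin. Its level was 2.15, 2.23 and 1.64 TPM in the vector control, 1.65, 1.12 and 0.982 TPM in EMX1-FL and 2.05, 1.07 and 1.45 TPM in EMX1-X1. F7, its activator together with tissue factor, lies 2117 bases upstream and had at most 4 counts per library. VTN, the adhesion protein vitronectin, had 2, 7 and 6 counts in the vector control, 6, 10 and 2 for EMX1-FL and 6, 2 and 1 for EMX1-X1, with overlapping groups.

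The fibrinogen chains were nearly absent. FGA and FGB had 0 counts in all 9 libraries, as did F9, the factor lacking in hemophilia B, and FGG had 7 counts in EMX1-FL replicate 2 and at most 1 elsewhere. F2, prothrombin, had 2 counts in all. PLG, the precursor of the fibrin-cleaving protease plasmin, had at most 2 counts per library, and F5, the cofactor of F10, at most 5.

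Apart from A2M, the protease inhibitors and prohormones were below 1 TPM. SERPIND1 and SERPINC1 encode the thrombin inhibitors heparin cofactor II and antithrombin. SERPIND1 had 5, 8 and 3 counts in the vector control, 0, 6 and 0 for EMX1-FL and 0, 1 and 3 for EMX1-X1. SERPINC1 had 3, 5 and 4 counts in the vector control, 0, 2 and 0 for EMX1-FL and 1, 0 and 3 for EMX1-X1. Both were low in every library, and neither passed the filter.

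SERPINA1, the elastase inhibitor alpha-1-antitrypsin, had 5 counts in EMX1-FL replicate 1 and 0 in the other libraries. SERPINA3, the acute phase chymotrypsin inhibitor, had 0 counts in all 9 libraries, although 31.7% of its exon bases overlap other genes. KNG1, the precursor of bradykinin, and ITIH1, a heavy chain that binds hyaluronan, also had 0 counts. Of the related heavy chains, ITIH2 and ITIH3 had at most 5 and 4 counts per library and ITIH4 at most 1, with 71.2% of its exon bases shared with other genes. AGT, the precursor of the angiotensins, had 2 counts in 1 library.

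In all, 9 members had 0 counts in every library (20.9%, against 13.7% of protein-coding gene names), 7 had between 1 and 3 counts over all 9 libraries, and 11 had counts in every library. A count of 0 allows up to 3 counts, which is between 0.119 and 0.139 CPM in a single library and 0.0142 CPM over the 9 libraries together. These limits cover counting error only. The 35 members that did not pass the filter summed to between 33 and 46 counts per library, so a change among them was not detectable at this depth unless it was very large.

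The factors and pathways around these genes were described from lists of related genes. Of 20 hepatocyte transcription factors, 12 passed the filter and 9 had a median of at least 1 TPM in the vector control. CEBPB was the highest at 357 TPM, followed by CEBPD at 36.2 TPM, FOXA1 at 25.9 TPM, CEBPA at 16.3 TPM and the lipid-sensing receptor PPARA at 7.88 TPM. FOXA3 was detected at 26 to 72 counts per library. HNF4A had 2 counts over the 9 libraries, and FOXA2 had 0. Of 15 hepatocyte enzymes, 7 passed the filter, led by ASS1 of the urea cycle at 40.3 TPM and FAH of tyrosine breakdown at 20.3 TPM, and TTC36, HPD and CPS1 were between 1.34 and 2.53 TPM.

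Of 59 other plasma proteins of hepatocytes, 13 passed the filter and 8 had a median of at least 1 TPM, so here too a few genes were detected and most were near 0. They included PROS1, SERPING1, FGL1 and LCAT, at 49.2, 49.1, 31.3 and 8.96 TPM. SERPING1 inhibits the first complement proteases, PROS1 is a cofactor of protein C, FGL1 is a fibrinogen-like secreted protein and LCAT esterifies the cholesterol of HDL. For all 43 members the highest level was that of A2M at 39.7 TPM.

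The machinery that handles plasma proteins at the cell was read beside the 67.6% of protein-coding gene names that passed the filter. Of 18 receptors and surface regulators of plasma proteins, 13 passed the filter, with ITGAV, an integrin chain that binds vitronectin, at 374 TPM, F3 (tissue factor) at 126 TPM, the complement regulator CD46 at 100 TPM, the protein C receptor PROCR at 66.6 TPM and the transferrin receptor TFRC at 64.6 TPM. Of 10 genes of lipoprotein assembly and uptake, 5 passed, among them the receptors SCARB1 at 37.2 TPM, LRP1 at 34.6 TPM and LRP8 at 6.85 TPM. Of 10 genes of IL-6 and IL-1 acute phase signalling, 8 passed, led by RELA at 58.0 TPM, STAT3 at 50.5 TPM, IL6ST, NFKB1 at 23.3 TPM and SOCS3 at 18.3 TPM.

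Markers of other cell types were read in the same libraries. All 10 mesenchymal markers passed the filter, with VIM at 872 TPM, LUM at 738 TPM, COL3A1 at 351 TPM, FN1 at 33.4 TPM and ACTA2 at 26.1 TPM. Of 6 biliary markers 2 passed, the highest being EPCAM at 4.36 TPM. None of 5 endothelial and none of 8 blood markers passed, and CDH5, VWF and PTPRC had a median of 0 TPM in the vector control.

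**Figure D2:**
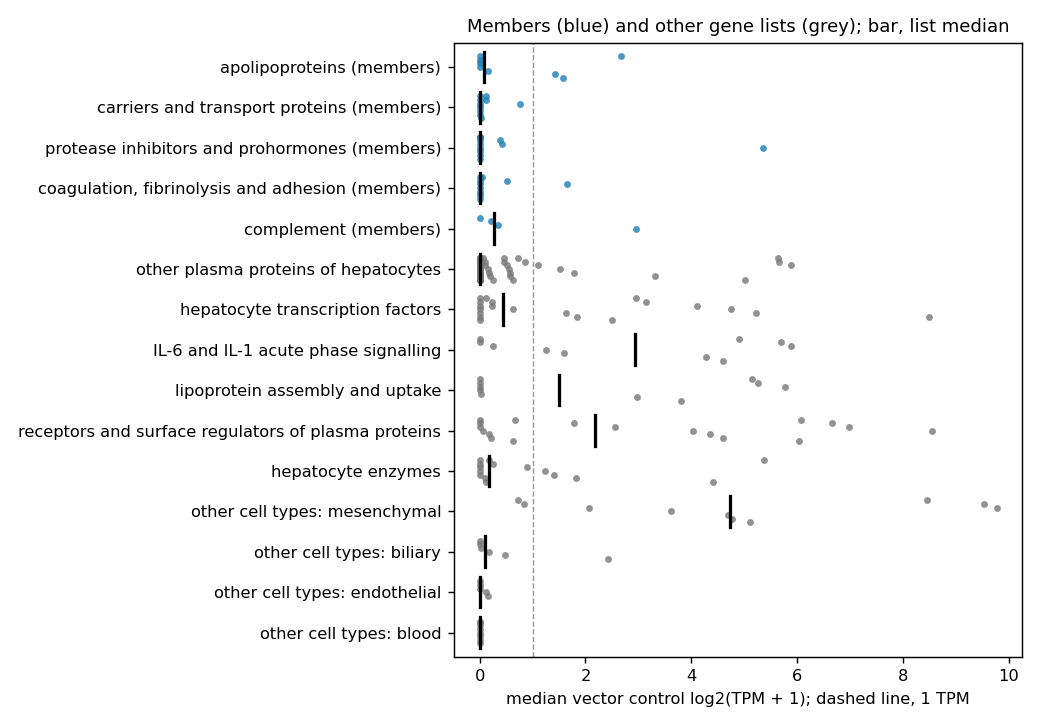
Median level in the vector control, as log2(TPM + 1), of each gene of the 5 member lists (blue) and of the other lists (grey), with a bar at each list's median. The member lists have medians between 0 and 0.211 TPM, and the mesenchymal markers have a median of 25.5 TPM.

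The effect of EMX1-FL and of EMX1-X1 was then tested with edgeR's quasi-likelihood test on the counts of all 18574 gene names that passed a filter on low counts (filterByExpr, 0.421 CPM, about 10 counts, in at least 3 libraries). Of the 43 members, 8 passed (18.6%), against 67.6% of protein-coding gene names: A2M, C5, C3, F10, APOM, APOC1, APOE and ALB. C3 reached the cutoff in 1 vector control, 2 EMX1-FL and 3 EMX1-X1 libraries, so it passed mainly through the overexpressing groups, and APOC1 and APOE reached it in all 3 vector control libraries but in 1 of EMX1-FL. A gene was counted as a differentially expressed gene (DEG) at an unadjusted p under 0.05 and at least a 2-fold change, the threshold of the study, and separately at a Benjamini-Hochberg adjusted p under 0.05 with the same fold.

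**Figure D3:**
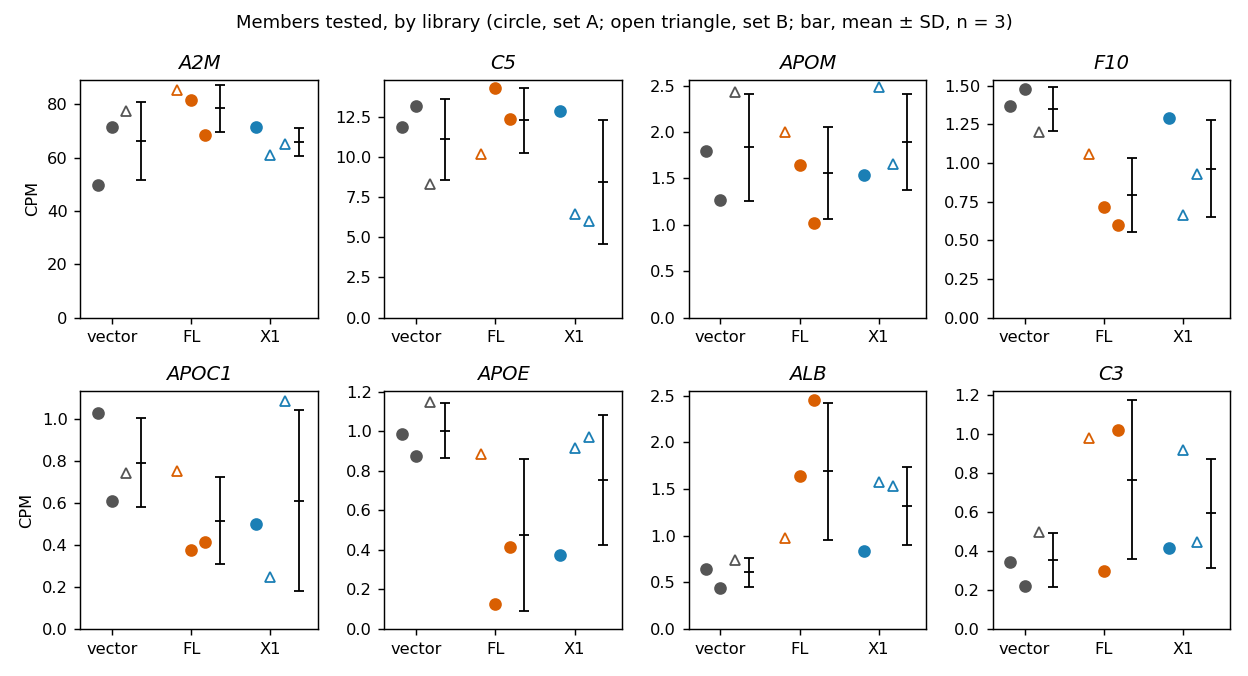
CPM of the 8 members tested in each of the 9 libraries, by group, with circles for libraries of set A and open triangles for set B, and a bar for the mean ± SD (n = 3 per group). ALB lies between 0.436 and 0.742 CPM in the vector control and between 0.832 and 2.45 CPM in the other libraries, while C5 is lower in the set B libraries of each group.

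ALB was the only member that met the unadjusted threshold in EMX1-FL overexpressing cells. It had 15, 10 and 18 counts in the vector control against 22, 39 and 53 in EMX1-FL, and the groups did not overlap. The exact 95% Poisson interval, which covers counting error only, was 10.7 to 28.4 counts for the highest vector control library and 13.8 to 33.3 for the lowest EMX1-FL library, so the intervals of these neighbours overlapped. ALB rose from 0.607 ± 0.156 to 1.69 ± 0.737 CPM (SD, n = 3). The log2 fold change was 1.46 ± 0.45 (SE, 95% interval 0.48 to 2.45), a fold of 2.76, with an unadjusted p of 0.00722 and an adjusted p of 0.467 in edgeR's quasi-likelihood test.

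Among the 18574 genes tested, ALB ranked 287 by p in this comparison, and 2.42% of all genes met the same unadjusted threshold (379 higher and 71 lower). At the adjusted threshold 0.07% of all genes and 0 of 8 members were called by edgeR, and 0 members by DESeq2, with 1 member at an unadjusted p under 0.05. The exact permutation test of ALB gave p = 0.1, the smallest that 3 against 3 libraries allow. Differences within sets were taken after adding 0.5 CPM. At levels this low the addition makes them smaller, so they are not on the scale of the edgeR fold change. The mean log2 difference was 1.28 within set A and 0.25 within set B, where a single library of each group was compared. Leaving out any 1 library of these groups gave log2 fold changes between 1.1 and 1.74, and ALB met the threshold in each of these fits.

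F10 was the other member whose groups did not overlap in this comparison, with 32, 34 and 29 counts in the vector control against 24, 17 and 13 in EMX1-FL. Groups that did not overlap were found for 2 of 8 members and for 10.5% of all genes tested. The log2 fold change of F10 was -0.76 ± 0.40 (95% interval -1.63 to 0.11, unadjusted p = 0.0815, edgeR's quasi-likelihood test), below the threshold. Without EMX1-FL replicate 1, which had the highest F10 of its group, the log2 fold change was -1.03 with an unadjusted p of 0.0438.

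The remaining 6 members did not meet the threshold. APOE had a log2 fold change of -1.07 (95% interval -2.40 to 0.25, edgeR unadjusted p = 0.103) and C3 one of 1.09 (-0.23 to 2.42, unadjusted p = 0.0964). APOE met the threshold with the set of libraries as a covariate (-1.24, unadjusted p = 0.0318) or without EMX1-FL replicate 1 (-1.89, unadjusted p = 0.0133), and C3 without EMX1-FL replicate 2 (1.46, unadjusted p = 0.031). APOC1 was at -0.62, APOM at -0.24, C5 at 0.14 and A2M at 0.24.

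The intervals of A2M (-0.18 to 0.67) and C5 (-0.52 to 0.80) lay within a 2-fold change in either direction. By direction, 4 of the 8 members were higher and 4 lower in EMX1-FL, while 56.3% of all genes were higher. The median log2 fold change was -0.05 for the 8 members and 0.04 for all genes tested.

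ALB was also the only member that met the unadjusted threshold in EMX1-X1 overexpressing cells. It had 20, 38 and 38 counts in EMX1-X1, all above the vector control libraries that both comparisons share. ALB rose to 1.32 ± 0.419 CPM (SD, n = 3), with a log2 fold change of 1.11 ± 0.45 (SE, 95% interval 0.12 to 2.10), a fold of 2.15. The unadjusted p was 0.0314 and the adjusted p 0.576 in edgeR's quasi-likelihood test, and the exact permutation test gave its smallest value, p = 0.1. ALB ranked 1012 by p.

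This call depended on single libraries. It was lost without vector control replicate 1 (log2 fold change 1.14, unadjusted p = 0.0611), without vector control replicate 2 (0.90, unadjusted p = 0.109), without EMX1-X1 replicate 2 (0.96, unadjusted p = 0.0935) and without EMX1-X1 replicate 3 (0.97, unadjusted p = 0.0923). The differences within sets were again made smaller by the added 0.5 CPM. The mean log2 difference was 0.37 within set A, with 1 EMX1-X1 library, and 0.73 within set B, with 1 vector control library. At the unadjusted threshold 2.5% of all genes were called (363 higher and 101 lower). At the adjusted threshold 0.00538% of all genes and 0 of 8 members were called by edgeR, and 0 members by DESeq2.

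ALB was the 1 member of 8 whose EMX1-X1 and vector control libraries did not overlap, against 14.7% of all genes tested. The estimates of the other 7 members were within a 2-fold change, with log2 fold changes between -0.49 (F10) and 0.74 (C3). A2M was at -0.01 (95% interval -0.43 to 0.42), a value whose sign turned with the scaling. The median of the 8 members was -0.19 and that of all genes 0.01, with 3 members higher and 5 lower.

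**Figure D4:**
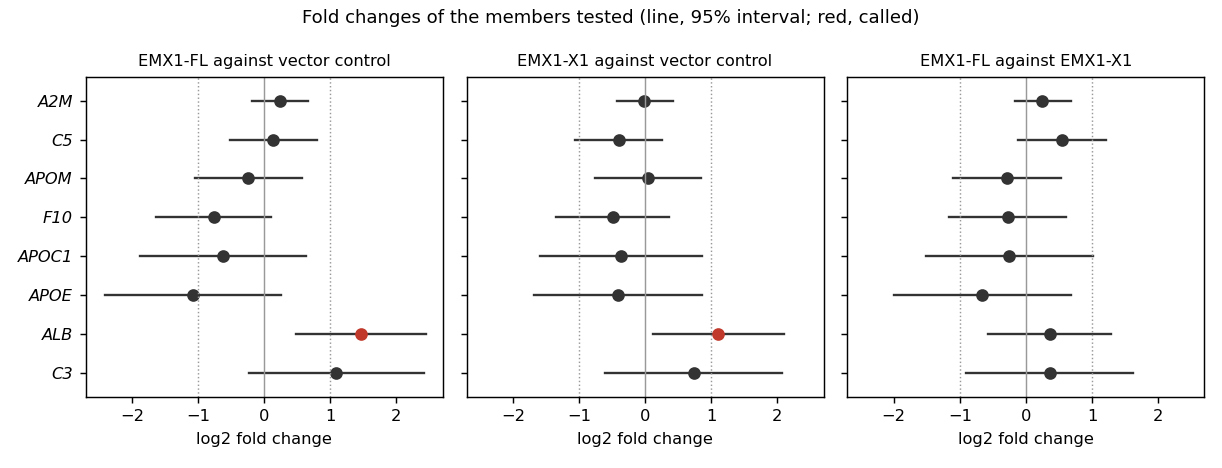
Log2 fold changes of the 8 members tested in the 3 comparisons, with lines for the 95% interval and red points for members at an unadjusted p under 0.05 and at least a 2-fold change. ALB is the only red point, at 1.46 in EMX1-FL and 1.11 in EMX1-X1, and dotted lines mark a 2-fold change.

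EMX1-FL and EMX1-X1 overexpressing cells were compared directly. None of the 8 members met the unadjusted threshold, none had an unadjusted p under 0.05 in edgeR's quasi-likelihood test, none was called by DESeq2, and none had groups that did not overlap. Over all genes tested, 1.42% met the unadjusted threshold, 0% the adjusted threshold, and 8.38% had groups that did not overlap. ALB differed by a log2 value of 0.36 (95% interval -0.57 to 1.29), an interval that reaches past a 2-fold higher level in EMX1-FL. Without EMX1-FL replicate 3, its highest library, the difference was -0.01.

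C5 had the lowest p of the members, with a log2 value of 0.54 in favour of EMX1-FL (95% interval -0.12 to 1.21, edgeR unadjusted p = 0.0997). The difference was 0.05 within set A and 0.66 within set B, which held 1 of the EMX1-FL and 2 of the EMX1-X1 libraries. APOE was at -0.66 and met the threshold without EMX1-FL replicate 1 (-1.46, unadjusted p = 0.0465). The median of the 8 members was 0.00 and that of all genes 0.02.

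Without the filter, 34 members could be tested. ALB was then the only member called against the vector control in either group, and CP was called between EMX1-FL and EMX1-X1. CP had 0, 1 and 7 counts in EMX1-FL against 0 in EMX1-X1, so its call rests mostly on EMX1-FL replicate 3. The numbers of all genes called in this fit are given in the last section. Their share of the genes tested is not given here.

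In the related lists, 3 of the 12 hepatocyte transcription factors tested rose in EMX1-FL at the unadjusted threshold, which 2.42% of all genes met. PROX1, a homeodomain factor of liver development, went from 3, 11 and 12 to 12, 46 and 40 counts (log2 fold change 1.95, unadjusted p = 0.00644). With 0.5 CPM added, the mean log2 difference of PROX1 was 1.61 within set A and 0.05 within set B. In set B the single libraries of both groups had 12 counts. ONECUT1 (HNF6) went from 28, 19 and 25 to 48, 58 and 49 counts (log2 fold change 1.16, unadjusted p = 0.00291). CEBPD, an acute phase C/EBP protein, went from 339, 288 and 337 to 1179, 418 and 412 counts (log2 fold change 1.12, unadjusted p = 0.0188). Their adjusted p in edgeR's quasi-likelihood test was between 0.302 and 0.679. In EMX1-X1, PROX1 had 35, 23 and 26 counts (1.63, unadjusted p = 0.0176), and it alone of the 12 was called. CEBPD (0.98, unadjusted p = 0.0344) and ONECUT1 (0.85, unadjusted p = 0.0181) were under the fold threshold, with groups that did not overlap. Other factors under the fold threshold went both ways. NR1I3 was lower in EMX1-FL (-0.68, edgeR unadjusted p = 0.0456) and PPARA in EMX1-X1 (-0.41, edgeR unadjusted p = 0.022), both without overlap with the vector control. ONECUT2 was higher in EMX1-FL (0.87, edgeR unadjusted p = 0.0141), with overlapping groups. Of the 12, 6 were higher in EMX1-FL and 9 in EMX1-X1. The median log2 fold change of the 12 was 0.05 in EMX1-FL and 0.29 in EMX1-X1.

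Of the 8 genes of acute phase signalling tested, SOCS3, the feedback inhibitor of IL-6 signalling, was called in EMX1-X1, from 340, 322 and 348 to 413, 913 and 827 counts (log2 fold change 1.04, edgeR unadjusted p = 0.0117). For CEBPD and SOCS3 the highest libraries of each overexpressing group were those of set B. With 0.5 CPM added, CEBPD differed from the vector control by 0.42 within set A and 1.88 within set B in EMX1-FL. In EMX1-X1 the differences were 0.16 and 1.21 for CEBPD and 0.26 and 1.28 for SOCS3. Set B held 1 vector control library. Of the 13 receptors and surface regulators tested, ITGB3, an integrin chain, had 23, 20 and 57 counts in the vector control. It had 36, 57 and 22 in EMX1-FL and 17, 13 and 17 in EMX1-X1. ITGB3 was lower in EMX1-X1 than in the vector control (-1.12, edgeR unadjusted p = 0.0399, adjusted p = 0.596). With 0.5 CPM added, this difference was -0.24 within set A and -1.36 within set B. ITGB3 was higher in EMX1-FL than in EMX1-X1 (1.37, edgeR unadjusted p = 0.0151, adjusted p = 0.611). LRP2, an endocytic receptor, had 7, 9 and 2 counts in EMX1-FL against 10, 17 and 39 in EMX1-X1 (-1.76, edgeR unadjusted p = 0.0265, adjusted p = 0.611). The unadjusted threshold was met by 2.5% of all genes in EMX1-X1 against vector control and 1.42% between the isoforms. None of the 13 other plasma proteins, 7 enzymes or 5 lipoprotein genes tested was called in any comparison at the unadjusted threshold. SERPINF1 (-0.97, edgeR unadjusted p = 0.0177) and SERPING1 (-0.41, edgeR unadjusted p = 0.0412) were lower in EMX1-FL, without overlap with the vector control. FGL1 was lower in EMX1-X1 than in the vector control (-0.86, edgeR unadjusted p = 0.0437), also without overlap. It was higher in EMX1-FL than in EMX1-X1 (0.97, edgeR unadjusted p = 0.0263), with overlapping groups. Of the 13, 7 were higher in EMX1-FL and 6 in EMX1-X1 than in the vector control.

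The marker lists of other cell types were set beside the ALB result. The summed level of the 10 mesenchymal markers was 2480 to 3000 CPM in the vector control, 2550 to 3100 in EMX1-FL and 2490 to 2680 in EMX1-X1, and 1 of them, ACTA2, was called, at -1.13 between EMX1-FL and EMX1-X1. Single markers differed less than 2-fold in the comparisons in which ALB was called, some higher and some lower. FN1, which encodes fibronectin, had 3941, 3695 and 4246 counts in the vector control, 5126, 6223 and 6002 for EMX1-FL and 6106, 5840 and 5993 for EMX1-X1, without overlap with the vector control. Its log2 fold change was 0.60 in EMX1-FL (unadjusted p = 0.00133) and 0.55 in EMX1-X1 (unadjusted p = 0.00256), both of lower p than ALB. DCN, which encodes the matrix proteoglycan decorin, was at -0.61 in EMX1-FL (unadjusted p = 0.00607) and -0.46 in EMX1-X1 (unadjusted p = 0.0279), also without overlap with the vector control. In all, 2 of the 10 markers had an unadjusted p under 0.05 in EMX1-FL and 4 in EMX1-X1 (FN1, DCN, COL1A1 and ACTA2). Of all 18574 genes tested, 1077 had an unadjusted p under 0.05 in EMX1-FL and 1506 in EMX1-X1 (edgeR's quasi-likelihood test). The 6 biliary markers summed to 3.09 to 4.5, 4.48 to 6.74 and 3.54 to 5.53 CPM in the same order, with KRT7 at a median of 0 TPM in the vector control. The 5 endothelial markers stayed under 1 CPM in sum in every library. The 8 blood markers summed to at most 0.253 CPM except in EMX1-FL replicate 1, which had 22 counts of HBB, the beta globin gene, and was also the only library with counts of SERPINA1. The part of these marker genes in the ALB result was not tested.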

How the data were processed

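Libraries of SNU-398 RNA were grouped by their labels (3 groups, 3 libraries each). A table the authors deposited holds counts (read pairs for each gene name) with no normalization, made according to its header with featureCounts 2.0.1 from STAR alignments to GRCh38 with Ensembl release 99. The labels list featureCounts 2.0.6 and the methods name RSEM. No strand option was given, and reads overlapping several genes were not counted. A second deposited table holds TPM as log2(TPM + 1), and this log2 scale was checked by recomputing it from the counts and gene lengths. Depth was 21562703 to 25197970 counts per library, and the counts of a gene set its precision.

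The count test was run with edgeR 4.0.16 under R 4.3.3 (TMM, filterByExpr, quasi-likelihood test, all 9 libraries, group only) and Benjamini-Hochberg adjustment over 18574 genes. DESeq2 1.42.0 and limma 3.58.1 were alternatives, as were other scalings, filters, a replicate block, a covariate for the set of libraries and leaving out each library. The scripts were tested on simulated data. The filter cutoff and the limits for 0 counts, also in CPM, used library sizes without TMM factors. For log2 CPM in permutation tests and in the differences within sets, 0.5 CPM was added. Libraries were split into sets at the widest gap along principal component 1. Promoters came from RefSeq (GRCh38.p14).

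The members and lists were chosen with earlier results of these data known. Values in every library are given for ALB, A2M, the 10 members highest in the vector control and members with an unadjusted p under 0.05. Of other lists, counts by library in the groups compared are given for the genes called, except ACTA2. From each list the 5 highest genes, and HNF4A, FOXA1, FOXA2, FOXA3, CEBPA and CEBPB, are named, apart from some genes that are not reported here. AFP, A2M-AS1, HBB, CDH5, VWF, PTPRC, KRT7, DCN, COL1A1, NR1I3, ONECUT2 and SERPINF1 were added after values were seen. So were the per-library values of C3 and FN1 and the fold changes of PPARA, SERPING1 and FGL1.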

Additional observations from a re-analysis of the deposited data

How the results depend on the processing

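The count of genes called at the unadjusted threshold changed with the offset in limma and with the filter. On log2(TPM + 1) with limma it was 142 in EMX1-FL against vector control, 177 in EMX1-X1 against vector control and 107 between them, on log2(TPM + 0.1) with limma 489, 504 and 280, without the filter 947, 962 and 686, and with at least 10 counts in every library 217, 214 and 121, against 450, 464 and 263. Leaving out each library gave 437 to 676, 311 to 906 and 141 to 1108. The members called in EMX1-FL were 0 with limma on log2(TPM + 1), where ALB was at 0.78 and under the fold threshold, 1 on log2(TPM + 0.1), where ALB was at 1.37, 2 with the set of libraries as a covariate (ALB and APOE) and 1 to 3 with a library left out. In EMX1-X1 they were 0 with limma on log2(TPM + 1), where ALB was at 0.58, 1 on log2(TPM + 0.1), where ALB was at 1.07, and 0 to 1 with a library left out. Between the isoforms they were 1 without the filter (CP) and 0 to 1 with a library left out. No member met the adjusted threshold in any of these fits. The number of all genes called with the set of libraries as a covariate is not given here, so the APOE call lacks a background. Of the 6 members at 1 TPM or more, 3 remained in CPM per kilobase.

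With the replicate block, 385, 407 and 208 genes were called, and the members called were 1, 1 and 0. The pairing by number had no support in the data: the mean correlation of deviations was -0.126 for libraries of the same number and 0.0596 for others, 3 of 9 pairs exceeded 0.1 and 0 of 9 libraries correlated best with their own number.

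Of 375 values of single members under the alternatives, 349 kept their direction and side of the threshold, 6 lost a call, 5 gained one and 15 turned direction, none of them a call. In EMX1-X1 against vector control, A2M (-0.01) was at 0.025 with library size alone and at 0.11 and 0.12 with limma on log2(TPM + 1) and log2(TPM + 0.1), and APOM (0.05) at -0.12 with the set of libraries as a covariate. With a library left out, A2M ranged from -0.19 to 0.11, APOM from -0.20 to 0.29 and APOC1 from -1.09 to 0.0039. In EMX1-FL against vector control, APOM ranged from -0.46 to 0.002 and C5 from -0.043 to 0.27 with a library left out. Between the isoforms, APOC1 ranged from -0.62 to 0.45 and ALB from -0.0066 to 0.65. The cause of these changes was not tested. Depth limits the members: 6 of the 8 tested had under 100 counts in every library.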
